A study of Mus musculus with 6 samples.

Results

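The genes described are 9 genes of the thick ascending limb of the loop of Henle, chosen by symbol for their part in salt transport or as products of that segment: Slc12a1, Kcnj1, Bsnd, Casr, Cldn10, Cldn16, Cldn19, Umod and Egf. They make up 9 of 51804 gene symbols and 34 of 128603 transcripts in a deposited RNA-seq table of mouse kidney. The choice was not limited to genes confined to this segment, and in whole kidney their levels can come from other segments too. The table covers 6 libraries. Of these, 3 are labelled cko, from Ccnb1f/f;Cdh16-Cre mice, and 3 are labelled control, from Ccnb1f/f mice without the Cre, so that both groups carry floxed alleles of Ccnb1, the gene of cyclin B1. Cre is made under the promoter of Cdh16, a cadherin of the renal tubule, and so acts in epithelium that includes the thick ascending limb and not in vessels, stroma or immune cells of the same kidney. The sources used here do not state the age and strain of the mice, or whether the 3 replicates of a group are separate animals. All p-values below therefore rest on library-to-library spread, part of which may be technical.

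The thick ascending limb takes up sodium, potassium and chloride from the urine through one apical cotransporter, returns potassium to the urine through an apical channel, and passes chloride to the blood side through basolateral channels. The resulting voltage across the epithelium, positive on the urine side, drives sodium, calcium and magnesium between the cells through pores formed by claudins. The segment dilutes the urine, builds the salt gradient of the medulla, and secretes uromodulin, the most abundant protein of normal urine.

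Each library held between 16061435 and 21261226 estimated counts. The targeted gene did not separate the groups: Ccnb1 had 18, 15 and 11 counts in the libraries labelled cko and 11, 17 and 7 counts in the controls, a log2 fold change of cko over control of 0.34 with an SE of 0.46 and an adjusted p of 0.999 in the edgeR quasi-likelihood test. The groups are therefore called by their labels. One library stood apart in cell type markers. The summed level of 8 proximal tubule markers was lowest in control 2, at 16238 CPM (counts scaled to a common library size, with TMM normalization), against 18064 to 18520 CPM in the libraries labelled cko and up to 20085 CPM in the other controls.

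The 3 coding transcripts of Slc12a1 share all other internal exons and differ in 1 exon of 96 bases, of which each carries its own version. These exons carry the part of the cotransporter known to set its affinity for chloride, and are known by letters in the order B, A and F along the gene. The letters are textbook knowledge and are not part of the annotation used here. They lie on chromosome 2 (GRCm38, plus strand) at chr2:125165495-125165590 for B, chr2:125166123-125166218 for A and chr2:125166673-125166768 for F. They are shown 5′ to 3′ because, apart from the transcript ends, these bases alone tell the transcripts of the cotransporter apart; capitals mark bases found in that exon and in neither of the others at the same position.
Slc12a1-202 (exon B): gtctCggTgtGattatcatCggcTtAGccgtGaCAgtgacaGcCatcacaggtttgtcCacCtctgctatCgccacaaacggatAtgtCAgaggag
Slc12a1-201 (exon A): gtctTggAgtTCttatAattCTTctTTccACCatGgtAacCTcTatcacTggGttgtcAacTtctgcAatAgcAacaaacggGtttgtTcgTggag
Slc12a1-203 (exon F): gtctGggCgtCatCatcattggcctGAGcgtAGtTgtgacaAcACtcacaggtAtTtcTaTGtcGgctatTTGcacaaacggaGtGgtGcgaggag
Of 96 positions, 51 hold the same base in all 3 exons. B and F are identical at 68.8% of positions, B and A at 65.6%, and A and F at 58.3%.

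Cldn10 makes 2 kinds of claudin-10 from alternative first exons on chromosome 14 (GRCm38, plus strand). Claudin-10a, from the upstream exon, forms anion-selective pores in the proximal tubule, and claudin-10b, from the downstream exon, forms cation-selective pores in the thick ascending limb. Again the letters come from background knowledge, matched here by the order of the first exons along the gene. The coding part of the upstream first exon lies at chr14:118788157-118788370 and that of the downstream one at chr14:118854990-118855209. They are shown because their bases tell the thick ascending limb form from the other, and capitals mark the start codon. Cldn10-203 is also annotated with a later end, at 118875489 against 118874524 for Cldn10-201, so reads at that end enter the split as well.
Cldn10-201 (claudin-10a): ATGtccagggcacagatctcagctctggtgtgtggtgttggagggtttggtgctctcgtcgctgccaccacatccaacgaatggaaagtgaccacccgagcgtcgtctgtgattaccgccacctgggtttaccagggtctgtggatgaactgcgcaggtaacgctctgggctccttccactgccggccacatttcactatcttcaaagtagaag
Cldn10-203 (claudin-10b): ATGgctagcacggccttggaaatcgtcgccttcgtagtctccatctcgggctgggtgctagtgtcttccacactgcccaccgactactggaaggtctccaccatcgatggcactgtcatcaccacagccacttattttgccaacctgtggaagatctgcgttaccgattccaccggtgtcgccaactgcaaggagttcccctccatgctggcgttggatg

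None of the 9 genes passed the threshold between the libraries labelled cko and the controls, and the groups overlapped for 7 of the 9. All 9 passed the filter on low counts and were tested among 15017 genes, of which 0.0133% (2 genes) were called at an adjusted p under 0.05. At an unadjusted p under 0.05 the count was 0 of 9, against 3.23% of all genes tested, and DESeq2 called 0 of 9 as well. Log2 fold changes of cko over control ran between -0.14 (Casr) and 0.34 (Cldn16), with 6 genes above 0 and 3 below. Their median was 0.07, beside -0.005 over all genes tested, of which 49.0% stood above 0. The median of the 9 was -0.01 without cko 2 and -0.013 without control 1. The 95% confidence intervals of all 9 hold 0, and their outermost bounds are -0.41 (Casr) and 0.76 (Cldn16) on the log2 scale, or 0.755-fold and 1.69-fold, so that a 2-fold difference in either direction lies outside each interval.

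**Figure D1:**
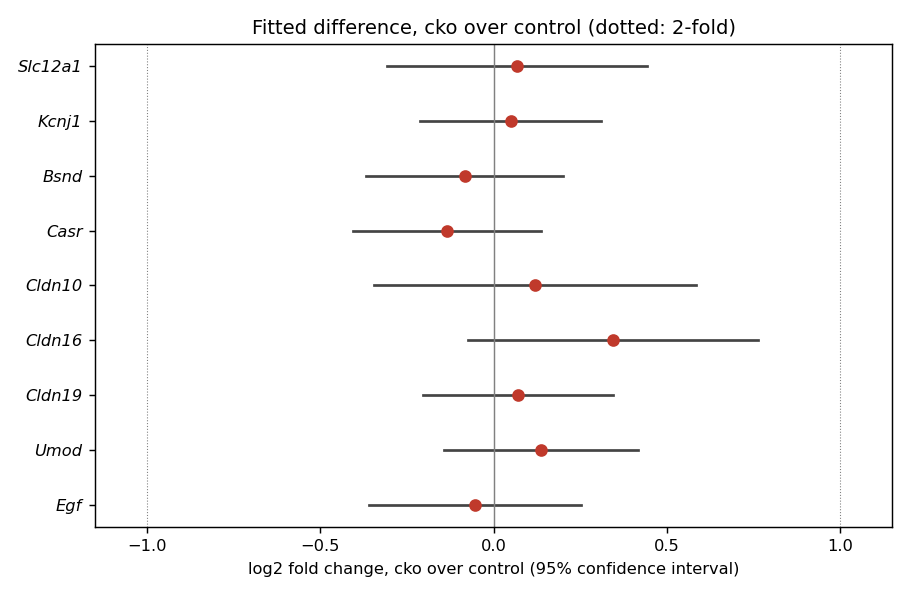
Log2 fold change of cko over control for each of the 9 genes (points, horizontal axis) with its 95% confidence interval (lines) from the edgeR fit over 3 libraries per group. Every interval crosses 0 and none reaches the dotted lines at a 2-fold difference; the widest span is that of Cldn10, -0.35 to 0.58.

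Salt entry and potassium recycling across the apical membrane showed no difference beyond the spread. Slc12a1 (ENSMUSG00000027202, chromosome 2, 125152505 to 125230002, plus strand), which encodes the sodium-potassium-chloride cotransporter NKCC2, the target of loop diuretics, stood at 1369, 1307 and 1289 CPM in the libraries labelled cko, against 1023, 1555 and 1204 CPM in the controls. All 3 values of the cko label lay within the range of the controls, between a low control 1 and a high control 2. The means were 1322 ± 41.7 CPM in the libraries labelled cko and 1261 ± 270.8 CPM in the controls (SD, n = 3 each), which is 0.07 on the log2 scale with an SE of 0.16 (adjusted p = 0.999 in the edgeR test), and was -0.06 without control 1. Kcnj1 (ENSMUSG00000041248, chromosome 9, 32372493 to 32399197), the apical potassium channel ROMK that keeps the cotransporter supplied with potassium, stood at 226, 268 and 247 CPM in the libraries labelled cko, against 217, 252 and 247 CPM in the controls. Its groups overlapped almost entirely, with a log2 fold change of 0.05 (SE 0.11), which was -0.02 without cko 2 and -0.01 without control 1.

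Chloride exit and calcium sensing also showed no difference beyond the spread, both with a fold change below 0. Bsnd (ENSMUSG00000025418, chromosome 4, 106483456 to 106492283), which encodes barttin, the subunit that basolateral chloride channels need, stood at 58.3, 56.4 and 50.6 CPM in the libraries labelled cko, against 60.8, 64.3 and 50.0 CPM in the controls. The lowest library was a control, and the log2 fold change was -0.08 (SE 0.12), which was -0.008 without control 2 and -0.18 without control 3. Casr (ENSMUSG00000051980, chromosome 16, 36493696 to 36562141), the calcium-sensing receptor of the basolateral membrane, which lowers calcium uptake in this segment when blood calcium is high, stood at 61.2, 73.9 and 64.8 CPM in the libraries labelled cko, against 68.4, 81.4 and 69.6 CPM in the controls. The value of cko 2 lay above 2 of the controls, and the log2 fold change was -0.14 (SE 0.12), which was -0.051 without control 2 and -0.22 without cko 2.

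Among the claudins, Cldn16 was the one gene whose groups did not overlap. Cldn16 (ENSMUSG00000038148, chromosome 16, 26463135 to 26482765), which with Cldn19 forms the pore for calcium and magnesium, had 176, 127 and 164 counts in the libraries labelled cko, against 102, 140 and 120 counts in the controls. These are 10.2, 8.01 and 7.56 CPM under the cko label, against 6.19, 7.09 and 7.01 CPM in the controls, so that the lowest cko library lay just above the highest control. The log2 fold change was 0.34 with an SE of 0.18, and the edgeR test gave an unadjusted p of 0.0951 and an adjusted p of 0.999. By exact permutation (two-sided) p was 0.1, which is as low as 3 against 3 can go. The log2 fold change was 0.20 without cko 1, the highest library. Across all genes tested, 4.1% had groups that did not overlap with the cko label higher. Cldn19 (ENSMUSG00000066058, chromosome 4, 119255414 to 119262438) stood at 41.4, 41.9 and 38.0 CPM in the libraries labelled cko, against 38.0, 43.4 and 34.1 CPM in the controls, with overlapping groups and a log2 fold change of 0.07 (SE 0.12), which was -0.01 without control 3.

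Cldn10 (ENSMUSG00000022132, chromosome 14, 118787908 to 118875489) had the widest spread of the 9 genes, with a highest library 1.73-fold above the lowest. It stood at 209, 277 and 227 CPM in the libraries labelled cko, against 276, 160 and 222 CPM in the controls. Its highest library was cko 2 and its lowest control 2, and the log2 fold change was 0.12 (SE 0.20), which was -0.01 without cko 2 and -0.06 without control 2. The claudin-10a transcript Cldn10-201 held between 76.3% and 88.4% of the counts of the gene in every library. It stood at 175.8, 245.2 and 196.4 CPM in the libraries labelled cko and 242.1, 122.1 and 191.1 CPM in the controls. The claudin-10b transcript Cldn10-203, the thick ascending limb form, stood at 33.7, 32.3 and 30.5 CPM in the libraries labelled cko, against 33.7, 37.8 and 27.8 CPM in the controls. By this estimated split, the gene-level value of Cldn10 is thus mostly that of the proximal form. The claudin-10b transcript had means of 32.2 ± 1.61 CPM in the libraries labelled cko and 33.1 ± 5.04 CPM in the controls (SD, n = 3 each). Its share of the gene was 13.7 ± 2.24% in the libraries labelled cko and 16.1 ± 6.48% in the controls (exact two-sided permutation p = 0.8).

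The secreted products were the most abundant of the 9 genes. Umod (ENSMUSG00000030963, chromosome 7, 119462711 to 119479282, minus strand), which encodes uromodulin, was the 13th most abundant gene in the mean of the controls. It stood at 4898, 4349 and 4647 CPM in the libraries labelled cko, against 4305, 4174 and 4162 CPM in the controls. The groups did not overlap, but the lowest cko library lay close to the highest control. The means were 4631 ± 274.9 CPM in the libraries labelled cko and 4213 ± 79.7 CPM in the controls (SD, n = 3 each), which is 0.14 on the log2 scale with an SE of 0.12 (edgeR, unadjusted p = 0.295 and adjusted p = 0.999; exact permutation, p = 0.1). On the deposited FPKM scale (fragments per kilobase of transcript, scaled to depth) the summed values overlapped, at 2152, 1953 and 2034 FPKM in the libraries labelled cko and 2038, 2093 and 1875 FPKM in the controls. Short transcripts weigh more in such sums. Umod-202, of 419 bases and with 1.69% of the counts on average, ran between 13.4 FPKM in cko 3 and 310 FPKM in control 1. The full transcript Umod-201 alone stood at 1722, 1470 and 1657 FPKM under the cko label, against 1387, 1506 and 1373 FPKM in the controls. Egf (ENSMUSG00000028017, chromosome 3, 129677565 to 129755316), the precursor of epidermal growth factor, which the distal nephron sheds into urine, ranked 29th in the controls. It stood at 2075, 2061 and 2002 CPM in the libraries labelled cko, against 1867, 2418 and 2084 CPM in the controls. All values of the cko label lay within the control range, and the log2 fold change was -0.05 (SE 0.13), which was 0.05 without control 2. Cldn16 and Umod are thus 2 of 9 genes without overlap, beside 8.18% of all genes in either direction.

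**Figure D2:**
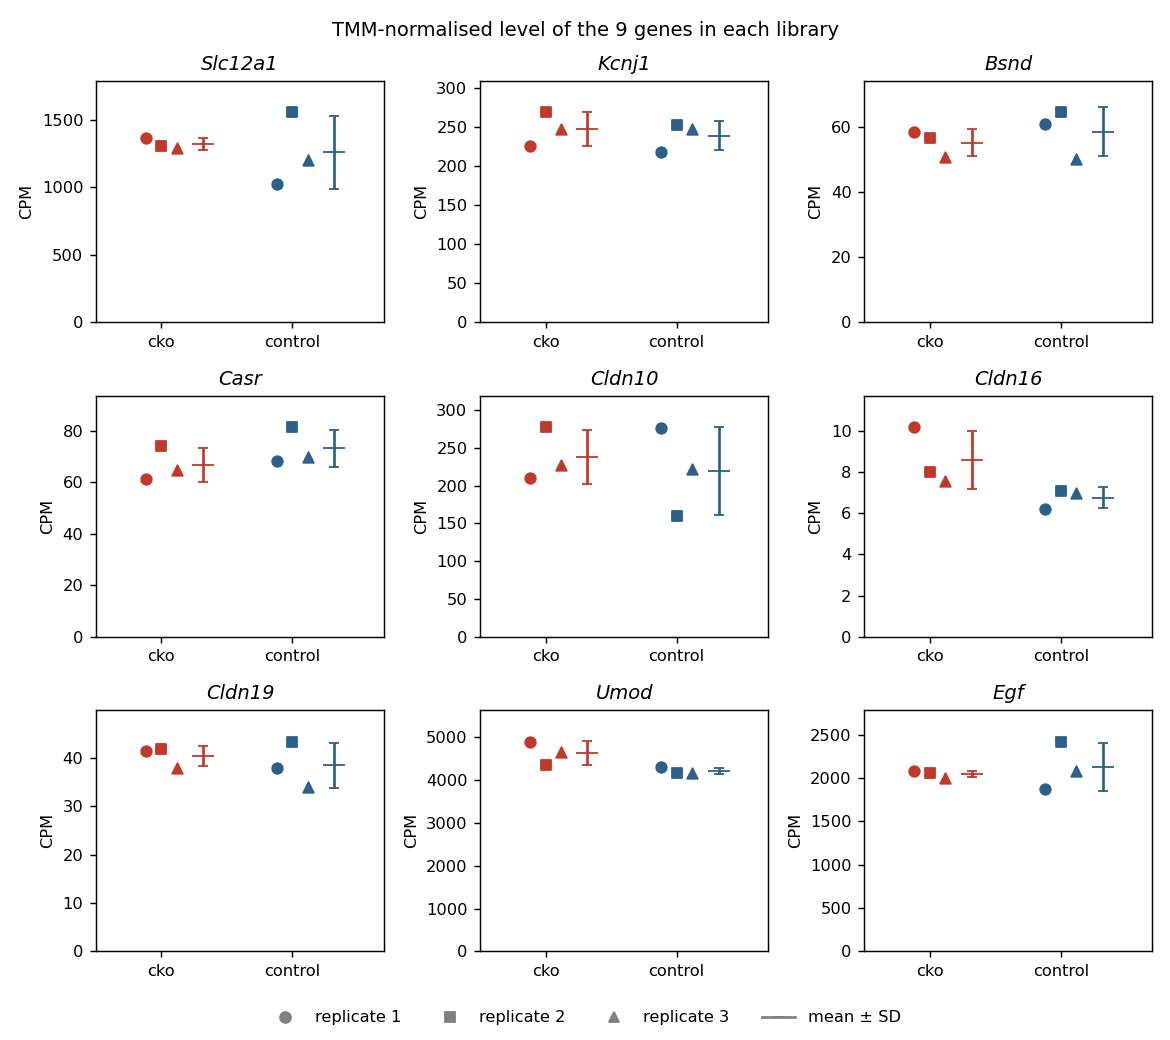
TMM-normalised CPM (vertical axes, from 0) of each of the 9 genes in the 3 libraries labelled cko (red) and the 3 controls (blue); symbols give the replicate number, and bars the mean ± SD of 3 libraries. Groups overlap for 7 genes, and for Cldn16 and Umod the lowest cko library lies just above the highest control.

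Per length, the 9 genes spanned a wide range of levels. Mean FPKM over the 6 libraries, summed over the transcripts of a gene, was 2024 for Umod, 464 for Egf, 288 for Slc12a1, 185 for Cldn10, 81.1 for Kcnj1, 20.6 for Bsnd, 17.0 for Cldn19, 16.5 for Casr and 6.84 for Cldn16. These sums depend on the split between transcripts, as Cldn19-201 gave 9.63 FPKM of the 17.0 of Cldn19 from 22.6% of its counts. Ranges over the 6 libraries overlapped between Slc12a1 and Cldn10, between Bsnd and Cldn19 and between Cldn19 and Casr. Within libraries, Slc12a1 exceeded Cldn10 and Bsnd exceeded Cldn19 in 6 of 6, whereas Cldn19 exceeded Casr in 4 of 6. The claudin-10b transcript alone had 12.6 to 18.8 FPKM, which places it beside Cldn19 and Casr, whereas the claudin-10a transcript had 113 to 211 FPKM. Together the 9 genes held 0.892%, 0.833% and 0.874% of all counts in the libraries labelled cko, against 0.757%, 0.929% and 0.782% in the controls. Umod alone held 0.488%, 0.429% and 0.474% in the libraries labelled cko, against 0.415%, 0.443% and 0.403% in the controls.

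By transcript, the use of the Slc12a1 cassette exons overlapped between the labels for each exon. Exon F is known as the main form of the outer medulla, exon A occurs in medulla and cortex, and exon B occurs in cortex and macula densa. Of the counts of these 3 coding transcripts, exon F held 47.6%, 55.0% and 56.3% in the libraries labelled cko, against 55.3%, 51.2% and 53.5% in the controls. Exon A held 41.7%, 33.1% and 32.6% in the libraries labelled cko, against 32.9%, 35.2% and 33.4% in the controls, with cko 1 above all others. Exon B held 10.7%, 11.9% and 11.2% in the libraries labelled cko, against 11.9%, 13.6% and 13.2% in the controls. The order F above A above B held in all 6 libraries. Mean shares in the libraries labelled cko and in the controls were 53.0 ± 4.65% and 53.3 ± 2.06% for F, 35.8 ± 5.11% and 33.8 ± 1.23% for A, and 11.3 ± 0.630% and 12.9 ± 0.924% for B (SD, n = 3 each; exact two-sided permutation p = 0.9, 0.9 and 0.2). The most abundant transcript, Slc12a1-203 with exon F, held 51.8 ± 4.29% of all counts of the gene in the libraries labelled cko and 52.1 ± 2.08% in the controls. The difference was -0.283 percentage points, and 2.17 points without cko 1 and 0.688 points without control 1. Another transcript, Slc12a1-204, which keeps an intron and overlaps exons A and F, held between 1.61% and 2.56%, so that some reads of A and F could be divided with it.

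For Umod, the full transcript Umod-201 (11 exons) held most of the counts. Its share was 92.5%, 89.9% and 91.8% in the libraries labelled cko, against 87.8%, 89.3% and 89.4% in the controls, and the groups did not overlap. The mean difference was 2.59 percentage points (exact two-sided permutation p = 0.1), and 7.84 points on the FPKM scale. Umod-206, also of 11 exons, held 3.42 ± 0.471% in the libraries labelled cko and 3.59 ± 0.412% in the controls (SD), with overlapping groups. The short models Umod-204 and Umod-202 have 3 exons each and differ from the full transcript mainly in the first one. Both had a lower share in every library labelled cko than in any control. Umod-204 held 2.64%, 4.68% and 4.88% in the libraries labelled cko, against 5.08%, 5.65% and 5.24% in the controls. Umod-202 held 1.74%, 1.49% and 0.119% in the libraries labelled cko, against 3.13%, 1.92% and 1.74% in the controls. The short models end inside exons of the full transcript, so most of their reads could come from either and the split is an estimate.

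The split of Casr between Casr-201 and Casr-203 differed most between the labels among the 8 genes with several transcripts. It was singled out after its values were seen. Casr-201 and Casr-203 are annotated with the same protein and differ in the untranslated first exon, at 36561854 to 36562134 for Casr-201 and, downstream on the minus strand of chromosome 16, 36561430 to 36561606 for Casr-203. Casr-203 held 20.9%, 21.5% and 24.3% of the counts of the gene in the libraries labelled cko, against 32.8%, 32.4% and 36.0% in the controls. Every library labelled cko lay below every control. The mean shares were 22.2 ± 1.81% in the libraries labelled cko and 33.7 ± 1.95% in the controls (SD, n = 3 each), a difference of -11.5 percentage points (exact two-sided permutation p = 0.1, the smallest possible). The difference lay between -12.5 and -10.4 points with one library left out in turn. In level, Casr-203 stood at 12.8, 15.9 and 15.7 CPM in the libraries labelled cko, against 22.4, 26.4 and 25.0 CPM in the controls, and Casr-201 at 48.4, 58.0 and 49.0 CPM in the libraries labelled cko, against 46.0, 55.0 and 44.6 CPM in the controls. Casr-203 is also annotated with a shorter last exon, which stops at 36494467 against 36493696 for Casr-201. That stretch is longer than either first exon, so reads at that end enter the estimate and the split is not one of first exons alone. Of 21 transcripts of these genes with a mean share between 1% and 99%, 5 had groups that did not overlap, namely the 2 of Casr and 3 of Umod, whose shares depend on each other. Across all transcripts with such a share, from genes with at least 100 counts in every library, 10.9% did not overlap.

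**Figure D3:**
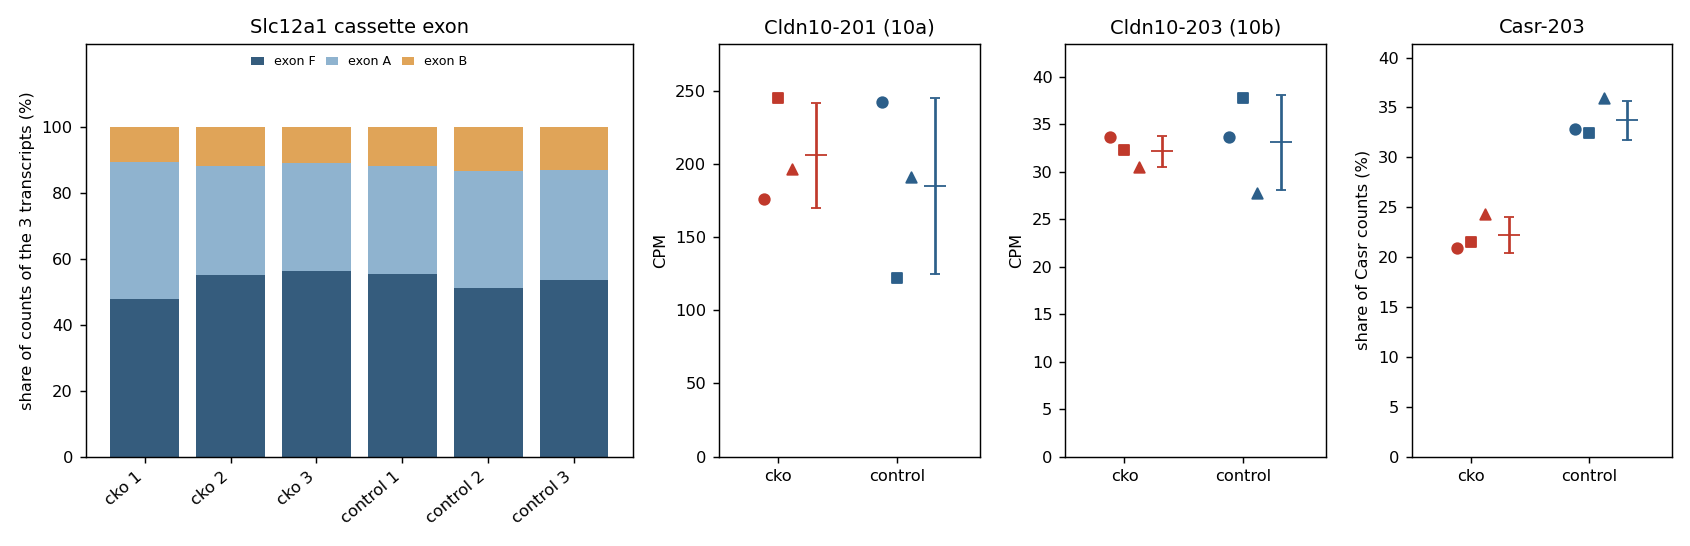
Left, share of the counts of the 3 coding Slc12a1 transcripts (percent, vertical axis) by cassette exon in each library; then CPM of the Cldn10 transcripts for claudin-10a and claudin-10b and the share of Casr counts in Casr-203, with libraries labelled cko in red, controls in blue, circles, squares and triangles for replicates 1, 2 and 3, and mean ± SD. Exon F holds 47.6% to 56.3% in every library, claudin-10a is lowest and claudin-10b highest in control 2, and the Casr-203 share is 20.9% to 24.3% under the cko label and 32.4% to 36.0% in the controls.

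The remaining variation among the 9 genes is given here by library. Of the 9 genes, 5 (Slc12a1, Bsnd, Casr, Cldn19 and Egf) were highest in control 2, and the claudin-10b transcript was highest there as well, with a deviation from its mean of 0.22 on the log2 scale. Cldn10 as a whole was lowest in control 2, and its claudin-10a transcript deviated by -0.64 there, in the library with the lowest proximal tubule markers. Control 2 was also the highest of the 6 libraries in the summed markers of the thin limb and inner medulla (1817 CPM), distal convoluted tubule (2085 CPM), principal cells (750.2 CPM), intercalated cells (294 CPM), macula densa (76.4 CPM), podocytes (504 CPM) and endothelium (332 CPM). Of the macula densa sum, 73.0 CPM was the prostaglandin receptor gene Ptger3. The part of tissue make-up in these values was not tested. Umod deviated by -0.08 and Cldn16 by -0.10 in control 2. Among the genes outside the 9 whose log2 CPM over the 6 libraries was most like the mean standardised level of the 9 were Zfp943 (Pearson r = 0.996), Vamp4 (0.979), Sorbs3 (0.966) and Abcc10 (0.957), out of 9323 genes ranked. With 6 points and so many genes, such values describe these libraries only. In whole kidney, fewer cells of a segment and less RNA per cell cannot be told apart.

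**Figure D4:**
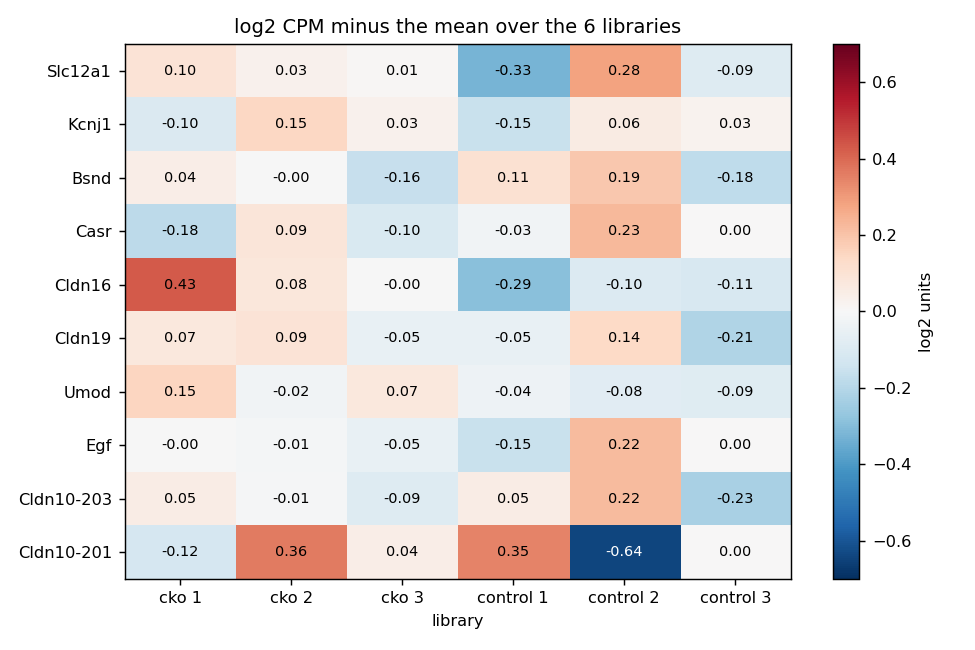
Log2 CPM minus the mean over the 6 libraries (colour and printed value, log2 units) for 8 of the genes and, in place of Cldn10, its claudin-10b (Cldn10-203) and claudin-10a (Cldn10-201) transcripts; columns are libraries, the 3 labelled cko on the left. Control 2 is the highest library for Slc12a1, Bsnd, Casr, Cldn19, Egf and claudin-10b, and the lowest for claudin-10a, at -0.64.

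A wider list of 44 genes, chosen by name for this segment, its transport energy, regulators and transcription factors, also held no called gene. All of them were tested. The list was not limited to genes confined to this segment, and in whole kidney its levels can come from other segments too. In it 19 genes stood above 0 and 25 below, with a median log2 fold change of -0.015. Its most abundant genes included Atp1b1, a subunit gene of the sodium pump, which powers all of this transport, with a log2 fold change of 0.04 (SE 0.14), and the pump regulator Fxyd2 at -0.01 (SE 0.18). The sodium bicarbonate cotransporter Slc4a4 was at 0.01 (SE 0.16), the parathyroid hormone receptor Pth1r at 0.08 (SE 0.17), the potassium channel Kcnj16 at 0.13 (SE 0.12), the G protein subunit gene Gnas at 0.03 (SE 0.12) and the kinase Wnk1 at -0.04 (SE 0.15). Fxyd2, Pth1r and Gnas were lowest in control 2 (959, 565 and 476 CPM), as the summed proximal tubule markers were, whereas Wnk1 was highest there (613 CPM). Cldn14, a claudin that closes the calcium pore, was near the limit of detection, at 0.844 ± 0.791 CPM in the libraries labelled cko and 0.688 ± 0.582 CPM in the controls (SD, n = 3 each).

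Groups did not overlap for 3 of these 44 genes, beside the 8.18% over all genes, and they are named after their values were seen. The prostaglandin receptor Ptger3, which lowers salt uptake in this segment, stood at 57.1 ± 3.74 CPM in the libraries labelled cko and 67.2 ± 5.80 CPM in the controls. Wfdc15b stood at 90.3 ± 4.45 CPM in the libraries labelled cko and 104.7 ± 6.59 CPM in the controls. Irx1, a transcription factor gene of the nephron, stood at 51.6 ± 6.22 CPM in the libraries labelled cko and 42.8 ± 2.00 CPM in the controls (SD, n = 3 each). Their log2 fold changes were -0.24 (SE 0.11), -0.21 (SE 0.10) and 0.27 (SE 0.12), with an adjusted p of 0.999 for each in the edgeR test.

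Markers of other cell types gave a measure of tissue make-up beside these values. No marker was at 0 in all libraries and none was called. Medians of log2 fold changes were 0.00 for 8 proximal tubule markers, -0.05 for 6 distal convoluted tubule markers, -0.02 for 6 principal cell markers and -0.15 for 6 intercalated cell markers, which all stood below 0. The 8 thin limb and inner medulla markers, of which 6 stood below 0, had a median of -0.35 and a summed level of 1203 to 1601 CPM in the libraries labelled cko, against 1640 to 1817 CPM in the controls. The 3 macula densa markers all stood below 0 and summed to 54.4 to 61.9 CPM in the libraries labelled cko, against 64.3 to 76.4 CPM in the controls. Nearly all of that sum was Ptger3, already named in the wider list (means of 57.1 and 67.2 CPM). Nos1 and Ptgs2 were low, at means of 1.33 and 0.666 CPM under the cko label and 1.62 and 1.36 CPM in the controls. The 4 macrophage markers all stood above 0 (median 0.33) and summed to 106.4 to 145.1 CPM in the libraries labelled cko, against 96.8 to 111.7 CPM in the controls. The 4 fibroblast markers all stood below 0 (median -0.42) and summed to 69.6 to 97.9 CPM in the libraries labelled cko, against 97.4 to 126 CPM in the controls. Of these 4, 3 had an unadjusted p under 0.05 in the edgeR test, beside 3.23% of all genes tested. So did 1 marker each of the proximal tubule, the thin limb and inner medulla, and intercalated cells. Groups did not overlap, with the cko label lower, for 2 of the 4 fibroblast and 2 of the 8 proximal tubule markers. The same held for 1 marker each of thin limb and inner medulla, intercalated cells and macula densa. For 1 macrophage marker the cko label was higher without overlap. The other lists held 0 such markers, beside 8.18% of all genes in either direction. The median of 5 podocyte markers was -0.03, and that of 5 endothelial markers, which all stood below 0, was -0.09. The part of these in the values of the 9 genes was not tested. The 9 genes together summed to 8443 to 8948 CPM in the libraries labelled cko, against 7861 to 8756 CPM in the controls. Umod alone gave 4349 to 4898 CPM of this sum under the cko label and 4162 to 4305 CPM in the controls.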

How the data were processed

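The authors deposited estimated counts per transcript, without normalization, next to FPKM values of the same transcripts. Per the submitters' processing notes, the tools were HISAT2 2.0.1, Cuffdiff 2.2.1, cutadapt 1.9.1, bcl2fastq 2.17.1.14 and FastQC 0.10.1, and the build was GRCm38. The sources used here state neither the counting program nor strandedness. The deposited estimated counts were added up per gene symbol and rounded; 87.9% of these sums were whole to within 0.01. Genes were tested with edgeR 4.0.16 (R 4.3.3), quasi-likelihood, two-sided, with all 6 libraries in a model of group alone, TMM scaling, the default low-count filter (minimum 10) and Benjamini-Hochberg adjustment over 15017 genes. The SE is the log2 fold change over the square root of F, and the code was tested on simulated data. Shares are percentages of the summed counts of a gene, compared by exact permutation. Deposited gene coordinates equal those of GENCODE M21 (GRCm38), whose transcript sequences were used. The genes named were all 9, the 8 most abundant of the wider list with a few of its members chosen by name, Cldn14 among them, and the 5 most alike at 10 CPM or more; exceptions are stated. Some genes that this rule names are not reported here. The 9 genes, lists and tests were chosen with earlier results of these data known. Alternatives were DESeq2 1.42.0, other scalings, no filter, limma 3.58.1 on log2(FPKM + 1) or log2(FPKM + 0.1) (at least 1 FPKM in 3 libraries), Ensembl IDs, a replicate block and libraries left out. Depth covers counting error only.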

Additional observations from a re-analysis of the deposited data

How the results depend on the processing

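None of the 9 genes or of the 44 genes of the wider list passed the threshold in any of the 16 alternative fits, where the lowest adjusted p of the 9 was 0.889. The number of genes called over the whole table, 2 in the report, was 14 with DESeq2, 5 without a filter, 1 with library totals only, 1 with limma on log2(FPKM + 1), 1 with limma on log2(FPKM + 0.1) and 1 to 6 with one library left out. With the replicate number as a block it was 2, and the block changed no call. Deviations of same-numbered libraries from their group means had correlations of 0.115, -0.082 and 0.139. Those of libraries with different numbers lay between -0.183 and 0.067. Such values cannot decide whether the numbers pair the libraries. The median of the 9 genes ran between -0.013 (without control 1; -0.01 without cko 2) and 0.09 with one library left out. Log2 fold changes that turned sign with one library left out ran between -0.062 and 0.25 for Slc12a1, -0.02 and 0.11 for Kcnj1, -0.063 and 0.32 for Cldn10, -0.009 and 0.17 for Cldn19 and -0.14 and 0.051 for Egf. Without control 2 and control 3 together, chosen after seeing the data, Cldn10 was at -0.21, Egf at 0.13, Slc12a1 at 0.37, Kcnj1 at 0.19 and Cldn16 at 0.47. Bsnd, Casr, Cldn16 and Umod kept their sign in all 16 fits, and with one library left out ran between -0.18 and -0.008, -0.22 and -0.051, 0.20 and 0.43, and 0.095 and 0.18, in that order. The difference in share of Slc12a1-203 ran between -1.82 and 2.17 points, that of Umod-201 between 2.02 and 3.35 points and that of Cldn10-203 between -4.34 and 1.34 points with one library left out. The cause of these turns was not tested. Ccnb1 ran between 0.10 and 0.61 with one library left out and was too low for the FPKM filter.

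With 3 libraries per group, intervals of the 9 genes allow differences up to 1.69-fold, and a transcript share cannot reach an exact p below 0.1. Splits between transcripts that share exons are the authors' estimates.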
